A study of Mus musculus with 6 samples.

Results

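The neurotrophin genes described here were the ligand genes Bdnf and Ntf3, the receptor genes Ngfr, Ntrk2 and Ntrk3, and Sort1, which codes for sortilin. The 6 genes were taken by symbol and Ensembl identifier from the 39179 genes listed in the count tables, by a rule that uses no measured value. RNA was sequenced from the dissected sensory epithelium of the cochlea, the hearing organ, and of the vestibule, the balance organs, of newborn (postnatal day 0) wild-type C57Bl/6J mice, males and females pooled. Each tissue was represented by 3 libraries, each made from 450 ng of RNA, and no treatment or mutation was involved. The RNA came from pooled tissue of 20 inner ears of 10 mice, and whether the 3 libraries of a tissue came from separate pools was not stated, so p-values measure only the spread between these libraries, which may be technical.

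Neurotrophins are secreted proteins that keep sensory neurons alive and guide their fibres to the epithelium. BDNF and neurotrophin-3 are the members of the family on which the inner ear depends, acting mainly through the receptor tyrosine kinases TrkB (gene Ntrk2) and TrkC (gene Ntrk3), which the ganglion neurons carry. The receptor p75NTR (gene Ngfr) binds every neurotrophin and its precursor, and sortilin pairs with it and sorts proneurotrophins inside cells.

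The study set mRNA against protein levels in these tissues, and the RNA comparison asks which genes differ between the cochlear and the vestibular epithelium at birth. Of the 6 genes, Ngfr and Ntf3 were higher in the cochlea, by 6.94-fold and 5.72-fold, and Bdnf was higher in the vestibule, by 1.96-fold. Ntrk2, Ntrk3 and Sort1 did not pass the threshold. These calls came from the edgeR quasi-likelihood test at a false discovery rate of 0.05, over 14723 genes with at least 1 CPM (read count per 1000000 counts on genes) in at least 3 libraries. All 6 genes passed that filter in both tissues. In the same fit 27.4% of the tested genes were called, 11.6% higher in cochlea (1711 genes) and 15.8% higher in vestibule (2325 genes), against 2 and 1 of the 6 neurotrophin genes. Scaling by library size alone shifted the median over the tested genes by 0.12 on the log2 scale toward the vestibule and gave 1251 and 2754 genes, and limma on the deposited RPKM gave 1292 and 2809. Without vestibule replicate 2 the cochlear count was 995. The neurotrophin calls up in the cochlea were 2 in every alternative.

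The libraries held 24464483 to 33664793 counts on genes. Marker genes moved between and within the tissues. Hair cell markers were present in every library, with summed levels of 580 to 813 CPM in the cochlear libraries and 1108 to 1409 CPM in the vestibule (6 of 11 called, all higher in vestibule). Fgfr3, a gene of cochlear pillar and Deiters cells, lay between 80.2 and 131 CPM in the cochlear libraries and between 5.02 and 6.11 CPM in the vestibule, and was the marker with the largest fold change of the pillar cell list. Of that list 4 of 5 genes were called up in the cochlea, while S100a1 was called the other way (log2 fold change 1.35), and the summed level of the list was 274 to 309 CPM in the cochlear libraries against 301 to 424 CPM in the vestibular ones. All 13 neuron markers had a negative log2 fold change (vestibule minus cochlea), and 7 of them were called up in the cochlea. Their summed level was 763, 684 and 247 CPM in cochlea replicates 1, 2 and 3, and 379, 123 and 152 CPM in vestibule replicates 1, 2 and 3. Cochlea replicate 3 and vestibule replicate 1 thus stood apart from the other libraries of their tissue. In such bulk RNA fewer cells of a type and less RNA per cell cannot be told apart.

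The bases upstream of the outermost annotated start are shown for the 3 genes that were called, since 2 of them, Ngfr and Ntf3, were high in the same tissue. The sequences are from RefSeq (GRCm38.p6), whose table held a promoter for 4 of the 6 genes (Ngfr, Bdnf, Ntf3 and Ntrk2), and end where either RefSeq or GENCODE places the first base of the gene. They run 5′ to 3′ on the strand of the gene, and capitals mark matches on either strand to GGGCGG (GC box) or CACGTG (E-box). The core promoter element TATAAA and the cAMP response element TGACGTCA, found in the longest of these windows of 12.4% and 1.55% of all promoters, were also searched and had no match.
Ngfr, chr11:95587736-95587948, minus strand: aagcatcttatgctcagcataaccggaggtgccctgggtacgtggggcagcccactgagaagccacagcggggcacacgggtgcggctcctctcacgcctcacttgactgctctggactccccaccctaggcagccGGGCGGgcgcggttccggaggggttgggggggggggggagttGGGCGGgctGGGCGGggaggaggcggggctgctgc
Ntf3, chr6:126166911-126166994, minus strand: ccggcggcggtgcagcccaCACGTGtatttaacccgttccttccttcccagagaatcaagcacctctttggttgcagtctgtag
Bdnf, chr2:109674450-109674699, plus strand: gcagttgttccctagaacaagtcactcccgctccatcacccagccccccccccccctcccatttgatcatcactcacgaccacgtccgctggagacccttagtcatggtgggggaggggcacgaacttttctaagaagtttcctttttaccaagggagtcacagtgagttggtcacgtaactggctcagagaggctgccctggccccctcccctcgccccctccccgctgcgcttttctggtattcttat
The 213 bases at Ngfr had a GC content of 70.9% and held 3 GC boxes, a motif found in the same window of 27.4% of 32851 promoters. The 84 bases at Ntf3 had a GC content of 56.0% and held 1 E-box, found in the same window of 1.45% of promoters. The 250 bases at Bdnf, the first of 7 Bdnf starts in the table, had a GC content of 58.0% and held none of the 4 motifs. The upstream windows of Ngfr and Ntf3 shared none of the motifs searched. These matches describe letters and are not evidence of binding.

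Ntf3 (ENSMUSG00000049107, GRCm38 chr6:126101412-126166910, minus strand) codes for neurotrophin-3, the main ligand of TrkC. Its level was 17.2, 15.6 and 14.0 CPM in cochlea replicates 1, 2 and 3 (15.6 ± 1.62 CPM, SD, n = 3) and 3.56, 2.76 and 2.55 CPM in vestibule replicates 1, 2 and 3 (2.96 ± 0.534 CPM, SD, n = 3). Every cochlear library lay above every vestibular library. The tissues did not overlap, in one direction or the other, for 41.8% of all tested genes. The log2 fold change, vestibule minus cochlea, was -2.52 with a standard error of 0.19 (edgeR, Benjamini-Hochberg adjusted p = 3.71e-05), which placed Ntf3 in rank 202 by size among the genes lower in the vestibule. The vestibular counts were small, 120, 71 and 65 reads, against 421, 450 and 408 in the cochlea.

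Bdnf (ENSMUSG00000048482, chr2:109674700-109727007, plus strand) codes for brain-derived neurotrophic factor, a ligand of TrkB. Its level was 11.0, 11.8 and 9.34 CPM in the cochlear libraries (10.7 ± 1.25 CPM, SD, n = 3) and 24.8, 20.2 and 23.5 CPM in the vestibule (22.8 ± 2.35 CPM, SD, n = 3), in the order of the replicates. The 2 tissues did not overlap, in the direction opposite to Ntf3. The log2 fold change was 0.97 with a standard error of 0.17 (edgeR adjusted p = 0.00281), at rank 1640 by size among the genes higher in the vestibule. GENCODE lists 11 coding transcripts of Bdnf from several starts, and the gene counts do not separate them. Summed hair cell markers were also higher in each vestibular library than in each cochlear one. So were markers of macrophages (4 of 4 called, 41.5 to 55.6 CPM against 162 to 190 CPM) and of endothelium and pericytes (4 of 6 called, 262 to 343 CPM against 618 to 838 CPM). Sums of Schwann cell markers (396 to 597 CPM against 781 to 1122 CPM) and mesenchyme markers (5098 to 5822 CPM against 7701 to 8851 CPM) were likewise higher. Of the mesenchyme markers 3 were called up in the vestibule and 2 in the cochlea. Supporting cell sums went the other way, and neuron and pillar cell sums overlapped. The part of these cell types in the difference of Bdnf was not tested.

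**Figure D1:**
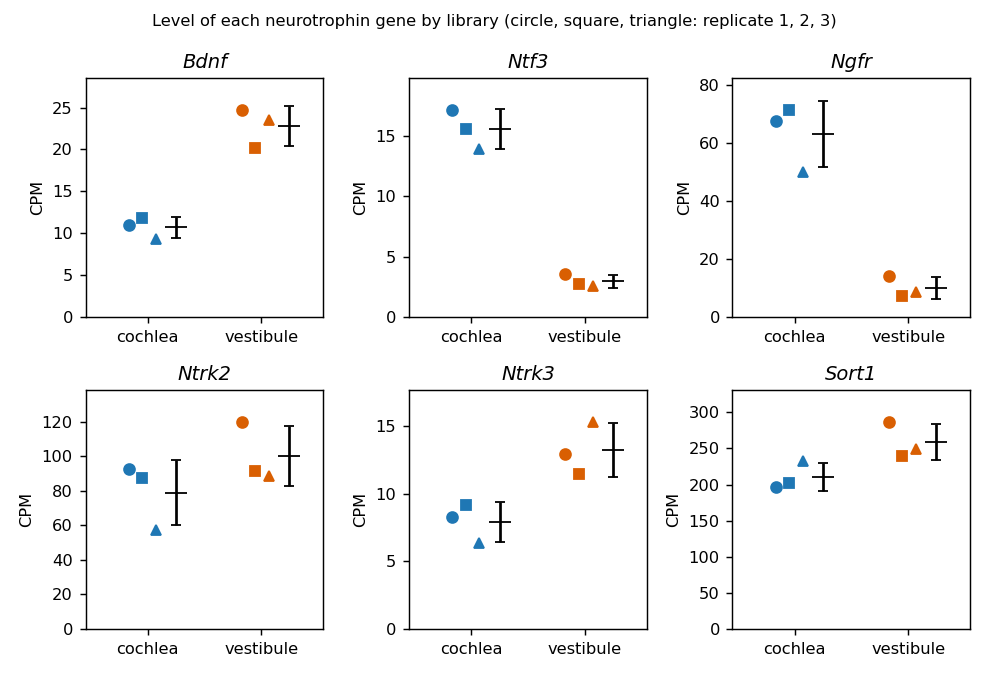
Level of each of the 6 genes in CPM (y axis, from 0) in the 3 cochlea (blue) and 3 vestibule (orange) libraries, with the mean and SD of each tissue in black. Bdnf lies higher in every vestibule library, Ntf3 and Ngfr in every cochlea library, and the 2 tissues overlap only for Ntrk2.

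The ratio of the ligands was taken within each library, where library scaling cancels. Per length, the RPKM (CPM divided by the gene length in kilobases) of Ntf3 was 6.79, 5.78 and 6.51 times that of Bdnf in the cochlear libraries, and 0.628, 0.598 and 0.475 times in the vestibular ones. Ntf3 was thus the more abundant ligand transcript per length in each cochlear library and Bdnf in each vestibular one. The log2 ratio of their counts fell by 3.49 from cochlea to vestibule, an 11.2-fold change, with SDs of 0.12 and 0.21 between replicates. Since neither gene overlapped between the tissues and they moved in opposite directions, the separation of the ratio was fixed by the results above, and no p is given for it.

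**Figure D2:**
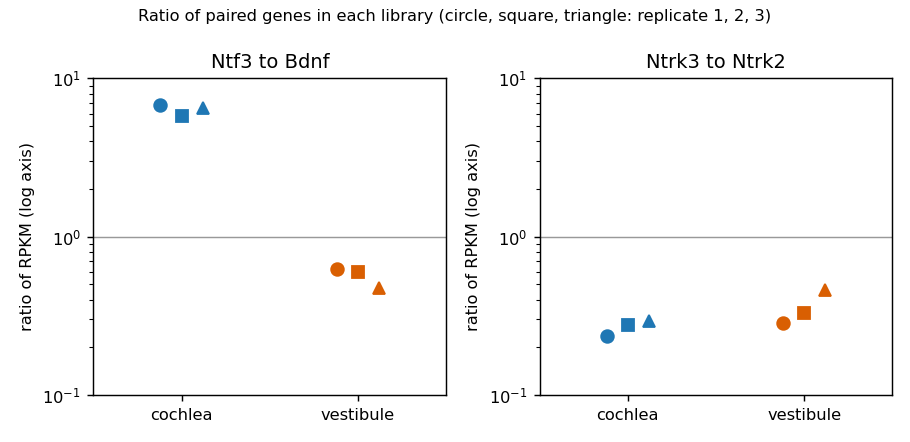
Ratio of RPKM (y axis, log scale) of Ntf3 to Bdnf and of Ntrk3 to Ntrk2 in each of the 3 cochlea and 3 vestibule libraries, with a line at a ratio of 1. The Ntf3 to Bdnf ratio is 5.78 or more in the cochlear libraries and 0.628 or less in the vestibule, while the Ntrk3 to Ntrk2 ratios of the tissues overlap.

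A further ligand gene was close to the filter on low counts. Ntf5, which codes for neurotrophin-4, another ligand of TrkB, had 19, 43 and 39 counts in the cochlear libraries and 82, 80 and 51 in the vestibule. Its log2 fold change of 0.93 with a standard error of 0.31 did not pass the threshold (edgeR adjusted p = 0.057). Ntf5 passed with library sizes alone (1.06, adjusted p = 0.0377), with upper quartile scaling (0.95, adjusted p = 0.0488) and with limma on RPKM (0.68, adjusted p = 0.0226).

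Ngfr (ENSMUSG00000000120, chr11:95568818-95587735, minus strand) codes for p75NTR, which is expressed in glia, neurons and developing epithelia. Its level was 67.6, 71.6 and 50.1 CPM in the cochlear libraries (63.1 ± 11.5 CPM, SD, n = 3) and 14.2, 7.20 and 8.44 CPM in the vestibule (9.94 ± 3.72 CPM, SD, n = 3). The tissues did not overlap, and the lowest cochlear library was still above the highest vestibular one. The log2 fold change was -2.79 with a standard error of 0.26 (edgeR adjusted p = 0.00011), the largest of the 6 genes and rank 152 among the genes lower in the vestibule.

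Markers of several cell types were set beside Ngfr, and not all of them went in its direction. Within each tissue Ngfr was lowest in the library with the lowest summed neuron markers, cochlea replicate 3 and vestibule replicate 2, and in the vestibule it was highest in replicate 1, where neuron markers were also highest. In the cochlea Ngfr was highest in replicate 2 and the neuron markers in replicate 1. With the log2 neuron marker level as a covariate the log2 fold change of Ngfr was -2.24 (adjusted p = 0.000447), and without cochlea replicate 3 and vestibule replicate 1 it was -3.26 (adjusted p = 3.67e-06, an alternative chosen after seeing the data). Of the Schwann cell markers, genes of the glia of the nerve, 4 of 9 were called, all higher in vestibule, with summed levels of 396 to 597 CPM in the cochlear libraries and 781 to 1122 CPM in the vestibule, opposite to Ngfr. Of 8 supporting cell markers, 7 were called up in the cochlea. Their summed level was 690 to 854 CPM there against 386 to 416 CPM in the vestibule, the direction of Ngfr and Ntf3. Within the cochlea the order differed, with sums of 690, 785 and 854 CPM in replicates 1, 2 and 3. That was the reverse of the order of Ntf3, and Ngfr was lowest in replicate 3. In the vestibule the sum was highest in replicate 1 and lowest in replicate 2, as was Ngfr, while Ntf3 was lowest in replicate 3. The supporting cell list shares Fgfr3 and Hey2 with the pillar cell list. Fgfr3 is a gene of cochlear pillar and Deiters cells, so part of the cochlear sum was set by the choice of genes. The part of supporting cells in either difference was not tested.

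Ntrk2 (ENSMUSG00000055254, chr13:58806569-59133970, plus strand) codes for TrkB. It had 92.4, 87.3 and 57.3 CPM in the cochlear libraries (79.0 ± 18.9 CPM, SD, n = 3) and 120, 91.6 and 88.5 CPM in the vestibule (100 ± 17.5 CPM, SD, n = 3). The tissues overlapped. The log2 fold change was 0.21 with a standard error of 0.20 (edgeR adjusted p = 0.475), and its 95% interval, not adjusted for the number of genes, ran from 0.842-fold to 1.59-fold in vestibule over cochlea. The value rested on single libraries, since it was 0.01 without cochlea replicate 3, 0.10 without vestibule replicate 1, and -0.10 (adjusted p = 0.632) without both.

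Ntrk3 (ENSMUSG00000059146, chr7:78175959-78738012, minus strand) codes for TrkC. It had 8.26, 9.20 and 6.33 CPM in the cochlear libraries (7.93 ± 1.46 CPM, SD, n = 3) and 12.9, 11.4 and 15.3 CPM in the vestibule (13.2 ± 1.97 CPM, SD, n = 3). Each vestibular library lay above each cochlear one. The log2 fold change of 0.62 with a standard error of 0.22 missed the threshold (edgeR adjusted p = 0.07), with a 95% interval, likewise unadjusted, of 1.08-fold to 2.18-fold. Ntrk3 passed the threshold with library sizes alone (log2 fold change 0.74, adjusted p = 0.0295), with DESeq2 (0.60, adjusted p = 0.0485) and with limma on the RPKM values (0.59, adjusted p = 0.033), so its call depended on the scaling and the tool. A predicted gene on the other strand, Gm9885, overlaps Ntrk3 and had at most 55 counts in a library.

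The Ntrk3 to Ntrk2 ratio of RPKM was 0.236, 0.278 and 0.291 in the cochlear libraries and 0.284, 0.330 and 0.457 in the vestibule. Ntrk2 was the more abundant per length in every library. The log2 ratio of the counts differed by 0.39, with overlap between the tissues (exact permutation test over libraries, two-sided, p = 0.2, and 0.2 after Benjamini-Hochberg adjustment over the 4 ratios computed). Both genes also code for receptors without the kinase domain. GENCODE lists Ntrk2 proteins of 821 residues beside shorter ones of 466 to 492, and Ntrk3 proteins of 825 to 864 residues beside one of 612 and others of 82 and 86. The gene counts add up all of these forms.

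Both Trk genes were then set against the neuron content of the libraries, measured by the 13 neuron markers. Within the cochlea the summed neuron markers differed 3.09-fold between the highest and the lowest library, whereas Ntrk2 differed 1.61-fold and Ntrk3 1.45-fold, and both were lowest in replicate 3, the library with the lowest summed level of neuron markers. Within the vestibule neuron markers differed 3.07-fold, Ntrk2 1.36-fold and Ntrk3 1.34-fold. There Ntrk2 was highest in replicate 1, the library with the most neuron markers, whereas Ntrk3 was highest in replicate 3, where Schwann cell markers were highest (1122 CPM). In the cochlea the reverse held, since Ntrk3 was highest in replicate 2, where Schwann cell markers were lowest (396 CPM). Ntrk3 was lowest in vestibule replicate 2, where neuron markers were also lowest, whereas Ntrk2 was lowest in replicate 3. Both Trk genes thus varied less between replicates than the neuron markers did, and only 3 libraries per tissue underlie each order. Bdnf and Ntf3 differed at most 1.26-fold and 1.40-fold between libraries of a tissue.

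Relative to the neuron markers both Trk genes were higher in the vestibule. The ratios also move with their denominator, since all 13 neuron markers had a negative log2 fold change. The log2 fold change was 0.21 for Ntrk2 itself and 0.62 for Ntrk3, and neither ratio is a level per neuron. The count of Ntrk2 was 0.121, 0.128 and 0.232 of the summed neuron marker counts in the cochlear libraries and 0.317, 0.742 and 0.581 in the vestibule. The tissues did not overlap, and the log2 ratio differed by 1.75, or 3.37-fold (exact permutation test, two-sided, p = 0.1, the smallest that 3 against 3 allows, adjusted 0.133). For Ntrk3 the same ratio was 0.0108, 0.0135 and 0.0257 in the cochlear libraries and 0.0342, 0.0929 and 0.101 in the vestibule, a log2 difference of 2.14, or 4.40-fold (exact permutation p = 0.1, adjusted 0.133). In the fit with the neuron marker level as a covariate the log2 fold change of Ntrk2 was 0.71 (adjusted p = 0.0511) and that of Ntrk3 0.83 (adjusted p = 0.156), and neither passed the threshold.

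**Figure D3:**
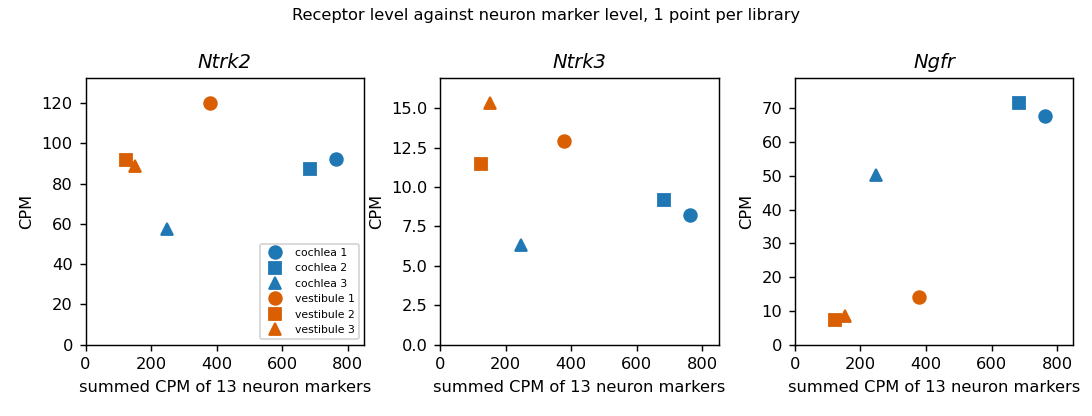
Level of Ntrk2, Ntrk3 and Ngfr (y axis, CPM) against the summed level of 13 neuron markers (x axis, CPM), 1 point per library, cochlea in blue and vestibule in orange. Cochlea replicate 3, at 247 CPM of neuron markers, is the lowest cochlear point for all 3 receptors, and the vestibular points lie at 123 to 379 CPM.

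Sort1 (ENSMUSG00000068747, chr3:108284082-108361511, plus strand) was the most abundant of the 6 genes per length in every library. Its level was 196, 203 and 232 CPM in the cochlear libraries (210 ± 19.2 CPM, SD, n = 3) and 287, 240 and 249 CPM in the vestibule (259 ± 25.2 CPM, SD, n = 3). The tissues did not overlap, but the difference was small, with a log2 fold change of 0.18, a standard error of 0.13 (edgeR adjusted p = 0.337) and a 95% interval of 0.926-fold to 1.38-fold. Its order between cochlear libraries was the reverse of that of the neuron markers, lowest in replicate 1 and highest in replicate 3, whereas between vestibular libraries both were highest in replicate 1 and lowest in replicate 2.

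Of the 5 genes of the sortilin family, sorting receptors with a shared Vps10p domain, 2 were called, both higher in vestibule, a direction in which 15.8% of all tested genes were called. Sorl1, the sorting receptor SorLA, was at 81.9 ± 11.4 CPM (SD, n = 3) in the cochlear libraries and at 177 ± 17.9 CPM (SD, n = 3) in the vestibular ones (log2 fold change 0.99, standard error 0.14, edgeR adjusted p = 0.000879), and Sorcs3 was at 14.0 ± 1.22 CPM and 26.0 ± 5.60 CPM (log2 fold change 0.77, standard error 0.16, adjusted p = 0.00852). Sorcs2, at 80.0 to 93.3 CPM in the cochlear libraries and 114 to 140 CPM in the vestibule, had a log2 fold change of 0.40 (adjusted p = 0.0802), which passed with library sizes alone (adjusted p = 0.0179) and limma on RPKM (adjusted p = 0.0181). Sorcs1 had one of -0.05 (adjusted p = 0.882).

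**Figure D4:**
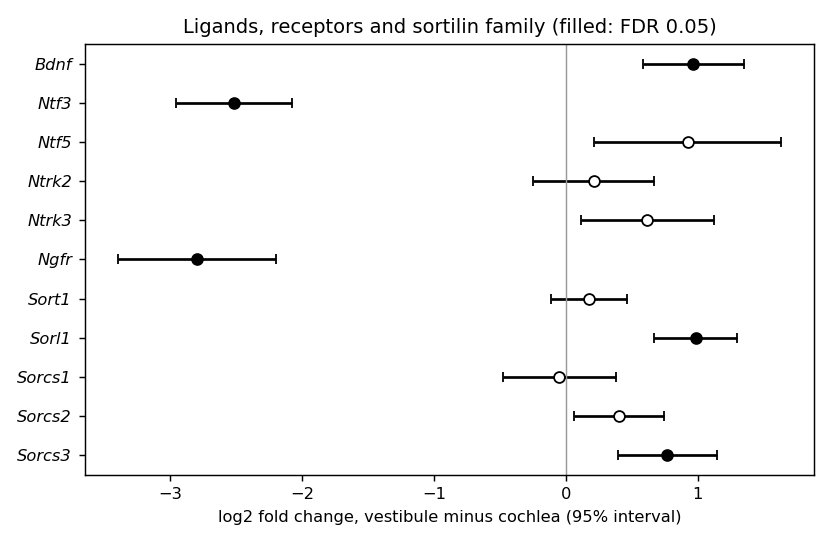
Log2 fold change, vestibule minus cochlea (x axis), with its unadjusted 95% interval for the neurotrophin ligands, receptors and sortilin family genes that were tested, filled where the edgeR test passed a false discovery rate of 0.05. Ntf3 (-2.52) and Ngfr (-2.79) lie far to the cochlear side, and Bdnf (0.97), Sorl1 (0.99) and Sorcs3 (0.77) are the genes called on the vestibular side.

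Per length, the order of the 6 genes was the same in the 3 cochlear libraries, with mean RPKM of 27.9 for Sort1, 18.3 for Ngfr, 11.0 for Ntf3, 5.73 for Ntrk2, 1.73 for Bdnf and 1.52 for Ntrk3. The ranges of neighbours overlapped only for Bdnf (1.51 to 1.90 RPKM) and Ntrk3 (1.21 to 1.76 RPKM). In the vestibule Sort1 (34.3 RPKM) and Ntrk2 (7.26 RPKM) came first in each library, and the means then ran from 3.68 for Bdnf over 2.89 for Ngfr and 2.53 for Ntrk3 to 2.08 for Ntf3. Their order differed between vestibule replicate 1, where Ngfr (4.12 RPKM) came right after Ntrk2, and the other 2 replicates, where Bdnf did and Ngfr came after Ntrk3, and the ranges of these 4 genes overlapped from each to the next.

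Over all pathway lists, which also hold the other ligands and receptors, the sortilin family and the GDNF, CNTF and LIF systems, 52 of 60 further genes were tested. Of these 9 were called higher in cochlea and 5 higher in vestibule (26.9% of those tested, against 27.4% of all genes), with a median log2 fold change of -0.09 against 0.00 over all genes. The 5 were Sorl1, Sorcs3, Ret, Nrtn and Il6st, none of them in the lists of processing enzymes, Trk adaptors and p75NTR partners. Among 7 tested genes that process proneurotrophins, Pcsk6 (-1.94, adjusted p = 5.97e-05) and Pcsk2 (-1.96, adjusted p = 0.00247), both proprotein convertases, were higher in the cochlea, while Furin, the general convertase of the secretory pathway, had a log2 fold change of 0.03 (adjusted p = 0.923). Neuron markers moved in the direction of Pcsk2, and with them as a covariate its log2 fold change was -1.44 and its call was lost (adjusted p = 0.0631). Of 17 adaptors that couple Trk receptors to signalling, 4 were called, all higher in cochlea, led by Shc2 (-1.54, adjusted p = 0.000512), Sh2b2 (-1.20, adjusted p = 0.0107) and Shc4 (-0.71, adjusted p = 0.00576), while Frs2, Shc1 and Grb2 did not pass. In the direction of the cochlea 11.6% of all tested genes were called. With the neuron marker covariate Sh2b2 missed the threshold at a log2 fold change of -1.31 with a larger standard error, 0.38 (adjusted p = 0.0636). Crkl, the fourth adaptor called (-0.61, adjusted p = 0.0167), was at -0.38 with the covariate (adjusted p = 0.293). Crkl also missed the threshold at -0.61 with the replicate block (adjusted p = 0.0838), -0.57 without cochlea replicate 1 (0.0547), -0.54 without cochlea replicate 2 (0.0657) and -0.52 without vestibule replicate 2 (0.0906). Of 12 partners of p75NTR, 2 were called, both up in the cochlea, in the direction of Ngfr. These were Rtn4r (-1.93, adjusted p = 0.000364), the Nogo receptor, and Lingo1 (-1.40, adjusted p = 0.00077), which form a receptor complex with p75NTR. Rtn4r had 3.99 to 4.41 CPM in the cochlear libraries and 1.04 to 1.40 CPM in the vestibule, and Lingo1 25.9 to 35.1 CPM and 11.2 to 16.0 CPM. All adjusted p-values are from the edgeR fit over all tested genes.

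The genes whose levels over the 6 libraries ran most like each of the neurotrophin genes were found by the root mean square difference of log2 CPM centred on its mean, over 12062 genes with a mean of at least 5 CPM. For Ngfr these were Slc35f3 (0.21), Ntf3 (0.26) and Cacng5 (0.26), so that Ntf3 was among the 3 nearest. For Ntf3 they were Lypd6b (0.12), Tmem266 (0.15) and Htr1b (0.15), and for Bdnf Lgmn (0.07), Gstt1 (0.08) and Aldh1a2 (0.09). Near genes by the same measure were Erich1 (0.06), Rgs7bp (0.09) and Mybl2 (0.09) for Ntrk2, Elovl7 (0.06) and Pawr (0.06) for Ntrk3, and Rsbn1l (0.04), Nbr1 (0.05) and Lemd3 (0.05) for Sort1.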

How the data were processed

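Sensory epithelia of 6 libraries (3 cochlea, 3 vestibule; Illumina stranded mRNA kit) were sequenced. Per the labels and methods, the authors aligned reads with TopHat2 2.1.0 to GRCm38, handled alignments with SAMtools 0.1.18 and deposited counts per Ensembl gene made with HTSeq 0.5.4p5, as well as log2 RPKM made with edgeR 3.4.2 for 14722 genes. The strand setting of the counting is not given in the sources used here, so reads of a gene and an antisense partner may not be separated. Summary lines (18.5 to 20.6% of each table) were left out. The deposited log2 RPKM matched the counts scaled by library size (median spread 0.00089 log2 over 14307 genes).

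Counts were tested with edgeR 4.0.16 (R 4.3.3), using TMM scaling, at least 1 CPM in at least 3 libraries, the quasi-likelihood F-test and Benjamini-Hochberg adjustment over all 14723 genes. The code was tested on simulated data. CPM was the count per 1000000 counts on genes, with SD between libraries, and 1 CPM was 24.5 to 33.7 counts. Ratios were taken with 0.5 added to each count and compared by exact permutation (scipy 1.17.1). Alternatives used DESeq2 1.42.0, limma 3.58.1, other scalings and filters, a replicate block, a neuron marker covariate and leaving out libraries. Symbols were matched for 95.99% of identifiers, and positions are from GENCODE on GRCm38.

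Named genes were the 6 members, all neurotrophin ligands, receptors and sortilin family genes, up to 3 called genes of each other pathway list, markers used to check a tissue or cell type, and the 3 nearest genes of each member. Some genes that these rules name are not reported here. Genes named outside this rule in the pathway lists (Furin, Frs2, Shc1, Grb2, Crkl) were added after their values were seen. The members and lists were chosen with earlier results of these data known.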

Additional observations from a re-analysis of the deposited data

How the results depend on the processing

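Over 20 alternative settings, 208 of 220 recomputed values kept their direction and their side of the threshold or, for counts of genes, stayed within 1.5 times the reported count and, for ratios, within 1 SD between replicates. Ngfr (log2 fold change -3.26 to -2.24), Ntf3 (-2.73 to -2.15) and Bdnf (0.83 to 1.18) were called in all 17 alternatives run for them, and Sort1 (0.12 to 0.30) in none. Ntrk3 became called with library size alone (0.74), DESeq2 (0.60) and limma on RPKM (0.59), which raised the neurotrophin genes up in the vestibule from 1 to 2 in each. Library size alone also moved the median of all genes by 0.12 and raised the pathway genes up in the vestibule from 6 to 10. The neuron marker covariate lowered the genes called to 769 (higher in cochlea) and 1340 (higher in vestibule). Leaving out 1 library gave 995 (without vestibule replicate 2) to 1982 genes higher in cochlea and 1660 to 2731 higher in vestibule. The log2 fold change of Ntrk2 turned to -0.10 without cochlea replicate 3 and vestibule replicate 1, an alternative chosen after seeing the data. The causes were not tested beyond what each setting changes by construction.

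Replicate numbers did not pair the samples (correlations of deviations for shared numbers of -0.175, -0.26 and -0.474). With the replicate block 1009 genes were called higher in cochlea and 1609 higher in vestibule, and no call of the 6 genes changed. With 3 libraries a tissue, the exact tests of ratios cannot reach 0.05.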

Other observations

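Other neurotrophic systems were described from the same fit. In the GDNF family, 7 of 9 genes were tested and 2 were called, both higher in vestibule, where 27.4% of all tested genes were called and 15.8% were higher in vestibule. Ret, the signalling receptor of the family, was at 3.27, 2.50 and 3.08 CPM in the cochlea and 15.2, 17.5 and 21.0 CPM in the vestibule (log2 fold change 2.49, standard error 0.22, edgeR adjusted p = 6.85e-05). Nrtn, which codes for the ligand neurturin, was at 6.17, 6.21 and 5.99 CPM in the cochlea and 18.7, 23.5 and 28.2 CPM in the vestibule (1.83, standard error 0.21, adjusted p = 0.000287). Gfra2, the coreceptor of neurturin, was at 13.2 to 15.4 CPM and 17.9 to 23.9 CPM and did not pass (0.38, adjusted p = 0.0786, against 0.0485 with library size alone), nor did Gdnf (-0.19, adjusted p = 0.596) and its coreceptor Gfra1 (0.14, adjusted p = 0.451). The genes that did not pass were named after their values were seen.

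In the CNTF and LIF system, 4 of 7 genes were tested and 2 were called, 1 in each direction, where 27.4% of all tested genes were called. Cntfr, the binding receptor of ciliary neurotrophic factor, was at 46.5, 66.2 and 57.2 CPM in the cochlea and 25.0, 28.3 and 21.8 CPM in the vestibule (log2 fold change -1.31, standard error 0.17, edgeR adjusted p = 0.000692). Il6st, the shared signalling subunit gp130, was at 206 to 253 CPM in the cochlea and 321 to 394 CPM in the vestibule (0.48, standard error 0.13, adjusted p = 0.0241). Il6st missed the threshold at a log2 fold change of 0.48 with the replicate block (adjusted p = 0.0966), 0.60 with the neuron marker covariate (0.0826), 0.44 without cochlea replicate 2 (0.0884), 0.42 without vestibule replicate 1 (0.0664) and 0.54 without vestibule replicate 2 (0.0581). The ligand gene Cntf had at most 0.196 CPM in a library and was not tested.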
